A study of Homo sapiens with 6 samples.

Results

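ITGA4 and the other integrin chain genes were examined in Kasumi-1, a human line from an acute myeloid leukaemia with the t(8;21) translocation, after CRISPR/Cas9 knockout of SETD8. SETD8, whose current symbol is KMT5A, encodes the methyltransferase that places a single methyl group on lysine 20 of histone H4. The members are the protein-coding rows of the deposited table whose symbol is ITGA or ITGB followed by digits or capital letters. They number 11 of 7983 listed genes, with 8 alpha chains (ITGA2B, ITGA3, ITGA4, ITGA5, ITGA6, ITGA9, ITGAM and ITGAV) and 3 beta chains (ITGB1, ITGB2 and ITGB3). GENCODE release 29 has 26 integrin chain genes, 18 alpha and 8 beta, and the other 15 were not analysed here. The same pattern of letters also takes 4 annotated genes that are no chains (ITGB1BP1, ITGB1BP2, ITGB3BP and ITGBL1), none of which was among the rows used here.

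RNA sequencing covered 6 libraries of polyadenylated RNA: 3 from cells labelled sgNT with a wild-type genotype, called control here, and 3 from cells labelled sgSETD8 with the SETD8 knockout genotype. The cell line and culture medium were the same in both groups, and the CRISPR/Cas9 treatment field is filled in alike for all 6. The labels do not say whether a group was a pool or a clone, or whether its libraries were separate cultures, so p-values reflect only how far these libraries scatter, which may be technical. No row of the authors' deposited table has an unadjusted p above 0.05, so the chains were seen only if they had passed that limit.

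Integrins are adhesion receptors built from an alpha and a beta chain that leave the endoplasmic reticulum as a pair, so the pairs a cell can show depend on which chains it makes. The ITGA4 product pairs with the ITGB1 product in α4β1, or VLA-4, which binds VCAM1 and fibronectin and is known for holding blood stem cells and leukaemic blasts in the bone marrow; with ITGB7 it forms the gut-homing receptor α4β7. ITGA9 encodes the closest relative of the ITGA4 product and binds many of the same ligands with ITGB1. ITGA5 with ITGB1 forms the classical fibronectin receptor, and the ITGB2 chains (with ITGAL, ITGAM, ITGAX or ITGAD) are restricted to leucocytes.

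Sequence from before a RefSeq start of ITGA4, of ITGA5 and of ITGB1 is shown. These genes were picked because ITGA4 and ITGA5 had the largest changes of share among the partners of ITGB1, described below. RefSeq promoter entries (GRCh38.p14) were matched by symbol for 7 of the 11 chains, in 10 windows of 250 bases before a start. In these windows 3 motifs were searched on both strands: the RUNX motif TGTGGT, which reads ACCACA on the opposite strand, the ETS core GGAAGT, which there reads ACTTCC, and the GATA motif AGATAA, which reads TTATCT. The printed stretches are the parts of the windows outside any exon of GENCODE release 29, 5′ to 3′ on the strand of the gene, with motif matches in capitals. The ITGB1 stretch lies inside the span of ITGB1 given below, as GENCODE places the start of that gene farther upstream. The other ITGB1 window is not printed.
ITGA4, chr2:181457136-181457201, plus strand: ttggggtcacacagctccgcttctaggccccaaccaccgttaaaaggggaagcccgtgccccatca
ITGA5, chr12:54419461-54419516, minus strand: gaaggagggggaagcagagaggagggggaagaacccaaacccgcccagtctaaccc
ITGB1, chr10:32958233-32958480, minus strand: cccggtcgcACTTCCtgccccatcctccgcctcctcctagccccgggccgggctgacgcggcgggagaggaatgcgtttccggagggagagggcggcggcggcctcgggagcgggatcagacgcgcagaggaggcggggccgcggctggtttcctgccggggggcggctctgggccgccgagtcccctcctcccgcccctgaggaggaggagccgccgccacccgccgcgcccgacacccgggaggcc

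The letters of none of the 3 motifs occurred in the 250-base windows of ITGA4, ITGA5, ITGAM and ITGA2B. The ETS core occurred once in each of the 2 windows of ITGB1 and 2 times in 1 of the 2 windows of ITGAV; the other ITGAV window held 1 GATA motif, and 1 of the 2 windows of ITGA6 held 1 RUNX motif. Over all 35116 promoter entries cut to the same length, 10.98% held the RUNX motif, 19.5% the ETS core and 9.17% the GATA motif. A match describes letters and is no measure of binding.

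Reads in listed genes ran from 10966349 to 12557974 per library. KMT5A was lower in the knockout libraries (1191, 1212 and 1255 normalized counts in control, 880, 933 and 939 in knockout; log2 fold change -0.41, limma-trend adjusted p = 5.65e-05). The edited stretch is not named in the labels, so this level is no check of the edit itself. Genes that mark these blasts, picked with their values known, were present in every library. KIT fell from 60704 ± 955 to 43551 ± 793 and MPO, the myeloperoxidase of granules, from 12254 ± 373 to 1541 ± 27.3, while CD33, ANPEP, CEBPE, RUNX1 and POU4F1 rose. CD34 (7153 and 7818) and RUNX1T1 (2760 and 3054) did not pass the test. Values below are normalized read counts (the reads of a gene over the size factor of the library), given as mean ± SD with n = 3 per group. A positive log2 fold change means higher in knockout. It was computed from log2(value + 1), and the added 1 shrinks it for genes of low level. As a difference of mean logs it can also be larger or smaller than the log of the ratio of means. A gene was called at an adjusted p below 0.05, and by that rule 94.1% of the 7516 tested genes were called, 47.3% higher and 46.7% lower. The edgeR quasi-likelihood test called 95.3% (46.6% higher, 48.7% lower) and DESeq2 called 91.7% (44.7% higher, 46.9% lower).

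Of the 11 chains 10 were tested, and 9 of them were called, which is near the 94.1% of all tested genes because the table itself was selected for change. ITGA4, ITGA6, ITGB1 and ITGB2 rose, ITGA2B, ITGA3, ITGA5, ITGA9 and ITGAM fell, ITGAV did not pass, and ITGB3 had too few reads to test. The median log2 fold change of the tested chains was -0.09, beside 0.14 over all tested genes. In 9 chains the libraries of the groups did not overlap, with knockout above in 4 and below in 5. The same held for 95.4% of all tested genes, 48.0% with knockout above and 47.4% below. The count carries no result about the family; the directions and sizes of its members follow.

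**Figure D1:**
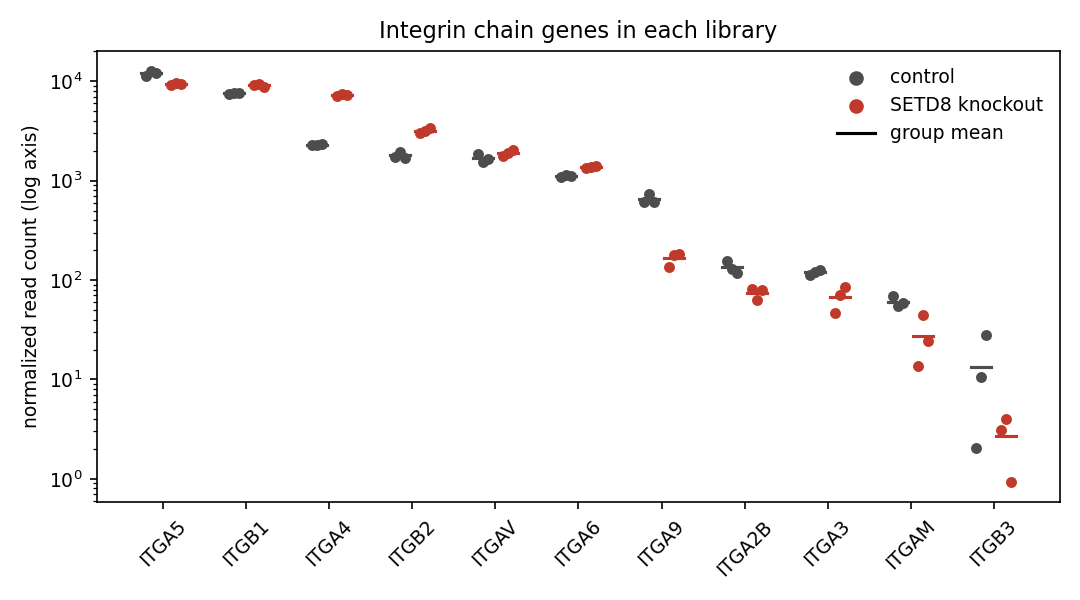
Normalized read count of each of the 11 integrin chain genes (log axis), with 1 point for each of 3 control and 3 SETD8 knockout libraries and a line at the group mean. ITGA4 goes from 2298 to 7275 on average and ITGA9 from 651 to 166, and the groups overlap for ITGAV and ITGB3.

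ITGA4 (ENSG00000115232, chromosome 2, 181457202 to 181536187, plus strand, hg38) was the chain that rose most. Control 1, 2 and 3 read 2285, 2287 and 2323, and SETD8 knockout 1, 2 and 3 read 7077, 7454 and 7294. The knockout libraries lay far above the control libraries, which were close together. The means were 2298 ± 21.4 and 7275 ± 189, a 3.17-fold higher level (log2 1.66, SE 0.05, limma-trend adjusted p = 3.08e-16). These values rest on 6932 reads in control and 22108 in knockout, summed over libraries. By the size of its log2 fold change ITGA4 ranked 555 of the 7516 tested genes.

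ITGA9 (ENSG00000144668, chromosome 3, 37452115 to 37823514, plus strand), the relative of ITGA4, went the other way. It read 609, 730 and 612 in control and 137, 179 and 182 in knockout. All 3 knockout libraries were below all 3 control libraries, with a wider relative spread than for ITGA4. The means fell from 651 ± 69.0 to 166 ± 25.4, a 3.92-fold lower level (log2 -1.97, SE 0.13, adjusted p = 3.40e-11). Per kilobase of gene length, ITGA4 stood at 3.93, 3.28 and 3.97 times ITGA9 in control and at 54.3, 43.7 and 42.0 times in knockout.

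ITGA5 (ENSG00000161638, chromosome 12, 54395261 to 54419460, minus strand), the alpha chain of the fibronectin receptor, fell by a small amount from a high level. It read 11330, 12619 and 12027 in control and 9154, 9575 and 9420 in knockout, again with no overlap. The means were 11992 ± 645 and 9383 ± 213, a 1.28-fold lower level (log2 -0.35, SE 0.06, adjusted p = 2.32e-05). ITGA6 (chromosome 2, 172427354 to 172506282), a laminin receptor chain, rose from 1118 ± 38.4 to 1372 ± 29.1, a 1.23-fold higher level (log2 0.29, adjusted p = 0.00111). ITGA3 (chromosome 17, 50055968 to 50090481), another laminin receptor chain, was low throughout. It read 111, 120 and 127 in control and 46.9, 71.5 and 85.0 in knockout, a 1.76-fold lower level (log2 -0.85, adjusted p = 0.00398).

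ITGAV (chromosome 2, 186590065 to 186680901), the chain shared by receptors for vitronectin and latent TGF-beta, did not pass the test. It read 1862, 1556 and 1648 in control and 1783, 1913 and 2039 in knockout, and the groups overlapped through control 1, the highest control library. The test gave log2 0.18 (SE 0.07, adjusted p = 0.0552). It passed without control 1 (log2 0.25, adjusted p = 0.0115) and without SETD8 knockout 1 (0.23, adjusted p = 0.0213), and went to -0.40 (adjusted p = 0.000224) when the median change of the genes within 5 Mb was taken out.

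The 6 listed alpha chains that can pair with ITGB1 were set side by side per kilobase of gene length. Their summed level was 2341 ± 80.1 normalized counts per kilobase in control and 2629 ± 70.7 in knockout. ITGA4 made up 12.8%, 11.95% and 12.6% of that sum in control and 35.2%, 35.2% and 34.7% in knockout. ITGA5 made up 66.1%, 68.8% and 67.8% in control and 47.4%, 47.2% and 46.7% in knockout. The shares of ITGA4 and ITGA5 did not overlap between the groups. ITGA9 went from 3.35% ± 0.26 to 0.760% ± 0.098. ITGA6 went from 7.31% to 7.99% without overlap, and ITGAV was at 8.81% and 8.85%, with overlapping libraries. The shares describe RNA of these 6 genes and leave out partners not analysed here, as well as the other beta chains that ITGA4, ITGA6 and ITGAV can join. They also depend on the deposited length of each gene, and whether it suits the transcripts made here was not tested.

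**Figure D2:**
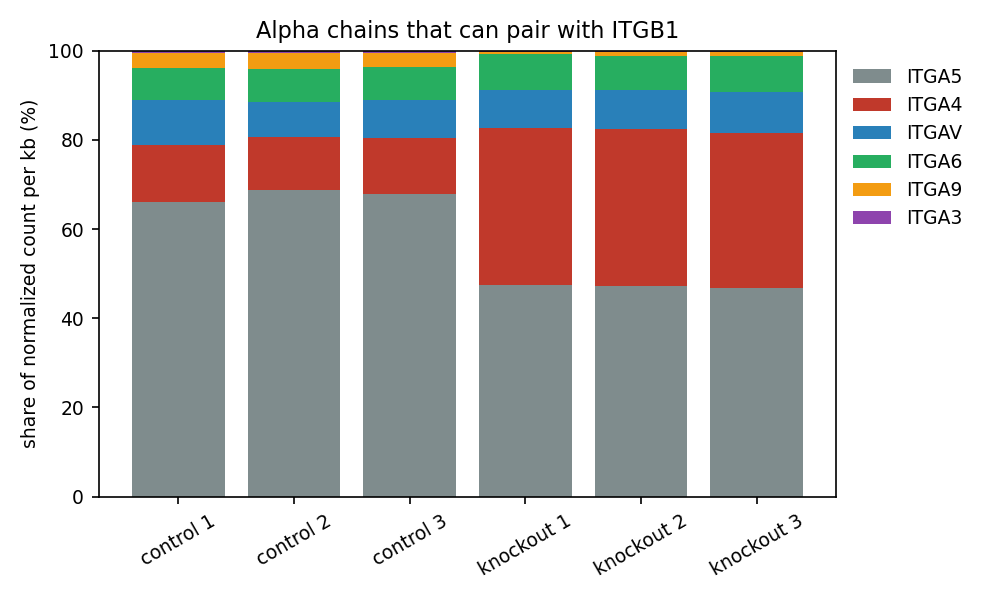
Share of each alpha chain in the summed normalized count per kilobase of the 6 listed alpha chains that can pair with ITGB1, in each of 3 control and 3 SETD8 knockout libraries. The ITGA4 share is 12.4% on average in control and 35.0% in knockout, and the ITGA5 share 67.6% and 47.1%.

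ITGB1 (ENSG00000150093, chromosome 10, 32900319 to 33005792, minus strand), the beta chain common to most of these receptors, rose slightly. It read 7530, 7556 and 7587 in control and 9163, 9368 and 8743 in knockout. The control libraries were almost equal and all knockout libraries were higher. The means were 7558 ± 28.3 and 9091 ± 318, a 1.20-fold higher level (log2 0.27, SE 0.05, adjusted p = 0.000325).

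ITGB2 (ENSG00000160255, chromosome 21, 44885953 to 44931989, minus strand), the CD18 chain of the leucocyte integrins, rose more than ITGB1. It read 1728, 1949 and 1703 in control and 3043, 3189 and 3358 in knockout, with no overlap. The means were 1794 ± 135 and 3197 ± 157, a 1.78-fold higher level (log2 0.83, SE 0.06, adjusted p = 5.93e-10). ITGAM (chromosome 16, 31259967 to 31332892), the CD11b chain that joins ITGB2 in the complement receptor of neutrophils and monocytes, fell at a low level. It read 68.5, 54.4 and 58.5 in control and 13.5, 44.7 and 24.3 in knockout (log2 -1.26, SE 0.35, adjusted p = 0.00625), with a wide spread in knockout. ITGAL, ITGAX and ITGAD, the other partners of ITGB2, were not analysed here.

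An antisense gene inside ITGB2, ITGB2-AS1 (chromosome 21, 44921051 to 44929678, plus strand), was lower in knockout. It read 21.5, 26.3 and 16.8 in control and 10.4, 5.96 and 5.60 in knockout (log2 -1.46, SE 0.49, adjusted p = 0.0208). With means of 21.5 and 7.33, it passed the minimum mean of 10 for testing only through control. Its direction against ITGB2 therefore supports nothing. That call ended without control 1, control 2, SETD8 knockout 2 or SETD8 knockout 3, at adjusted p of 0.0619, 0.101, 0.0563 and 0.0562. The library kit marks strand, but no source here tells whether the counting used it, so reads of the antisense gene and of ITGB2 may be mixed.

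The chains of the platelet fibrinogen receptor were at low levels. ITGA2B (chromosome 17, 44372180 to 44389505) read 154, 130 and 119 in control and 81.3, 62.6 and 80.3 in knockout, a 1.80-fold lower level (log2 -0.84, SE 0.20, adjusted p = 0.00144). ITGB3 (chromosome 17, 47253846 to 47311816), its partner, read 2.04, 10.7 and 27.7 in control and 3.13, 3.97 and 0.934 in knockout. With 41 reads in control and 8 in knockout, it was below the minimum mean of 10 for testing, and the groups overlapped. The authors' deposited table gives ITGB3 a log2 fold change of -2.34 with an adjusted p of 0.0707.

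Partners were compared within each library by the log2 ratio of alpha to beta chain, in 9 pairs with both chains in the table. An exact two-sided permutation test of 3 libraries against 3 cannot go below p = 0.1, which becomes 0.18 after Benjamini-Hochberg adjustment over the 9 pairs, so no pair could pass. The ratio of ITGA4 to ITGB1 was -1.72, -1.72 and -1.71 in control and -0.37, -0.33 and -0.26 in knockout, a difference of 1.40 (exact permutation p = 0.1, the smallest possible). The RNA ratio of ITGA4 to its partner was thus 2.63-fold higher in knockout. Against ITGB1, the ITGA5 ratio differed by -0.62, that of ITGA9 by -2.25 and that of ITGA3 by -1.12, each with an exact permutation p of 0.1 and no overlap between groups. ITGAM against ITGB2 differed by -2.13, also with an exact permutation p of 0.1. For ITGA6 and ITGAV against ITGB1 the differences were 0.03 and -0.08, within the spread between libraries (exact permutation p = 0.7 and 0.5). Against ITGB3, ITGA2B differed by 1.05 and ITGAV by 2.08, with SDs within groups of up to 2.09 (exact permutation p = 0.4 and 0.3).

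In order of normalized count per kilobase, the control libraries had ITGA5 first at 1583 ± 85.2, then ITGB1 at 1257 ± 4.70, ITGA4 at 291 ± 2.70, ITGB2 at 264 ± 19.9, ITGAV at 206 ± 19.1, ITGA6 at 171 ± 5.88 and ITGA9 at 78.6 ± 8.33. The 4 lowest were ITGA2B, ITGA3, ITGAM and ITGB3, between 24.2 and 3.07. In the knockout libraries ITGB1 came first at 1512 ± 52.9 and ITGA5 second at 1238 ± 28.1, and ITGA4 followed at 921 ± 24.0. From ITGA4 down the order was the same in both groups. Of neighbours in the order, ITGA3 and ITGAM overlapped between libraries in both groups, and all other neighbours lay apart. Such overlap reflects only the scatter between libraries. Gene length is a fixed deposited value for each gene, and whether it suits the transcripts made here was not tested.

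Each chain was set beside the tested genes within 5 Mb of it. Around ITGA4 lay 12 such genes, 8 called higher and 3 lower, beside 47.3% and 46.7% of all tested genes. Among the higher ones AC096667.1 (2.93 in control, 18.2 in knockout) reached the minimum mean of 10 only through knockout, so it had to differ. The median of the 12 genes was 0.30 on the log2 scale. With that median taken out ITGA4 stood at 1.36 (adjusted p = 2.63e-14). ITGA9, ITGA5 and ITGB1 were also called in the same direction with the median of their neighbours taken out, at -1.71, -0.60 and 0.69; the genes around ITGB1 had a median of -0.42, with 1 of 14 higher and 10 lower. ITGB2 was at 0.43 in place of 0.83, in a stretch of chromosome 21 where 25 of 33 genes were higher. The calls of ITGA2B, ITGA3 and ITGAM ended, at -0.27, -0.25 and -0.55 (adjusted p = 0.483, 0.761 and 0.374). Around ITGA2B 102 of 120 genes were lower, around ITGA3 57 of 63 and around ITGAM 54 of 59.

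**Figure D3:**
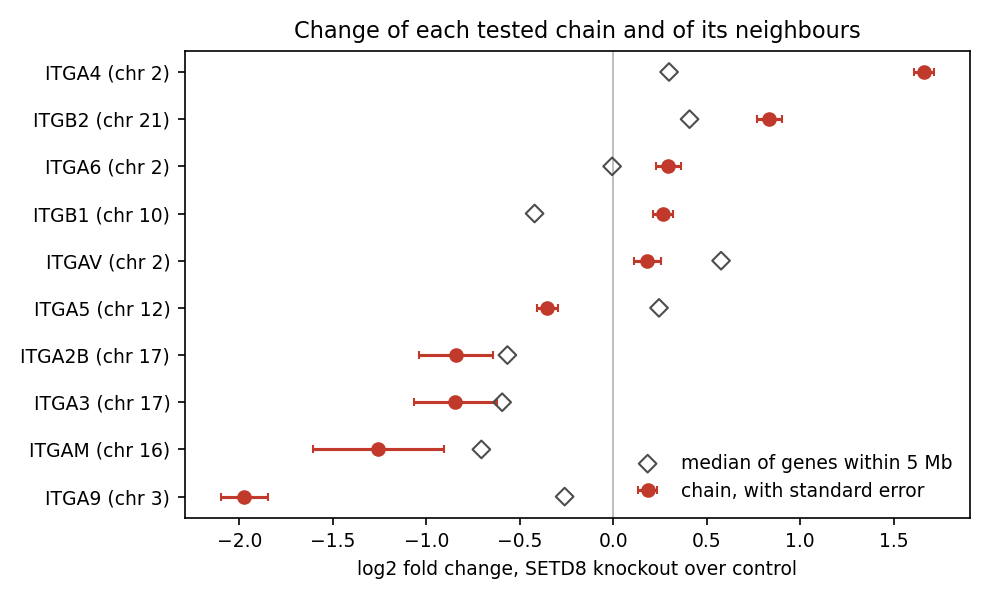
Log2 fold change, SETD8 knockout over control, of the 10 tested chains (filled points, bars are standard errors) and the median log2 fold change of the tested genes within 5 Mb of each (open diamonds), with the chromosome of each chain. ITGA4 and ITGA9 lie farthest from their neighbours' medians (0.30 and -0.26), and the changes of ITGA2B and ITGA3 less their neighbours' medians are -0.27 and -0.25.

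The tested gene nearest to ITGA4 rose with it. CERKL, which encodes a ceramide kinase-like protein, lies on the minus strand with its 3′ end 0.489 kb from that of ITGA4, so the genes run towards each other. CERKL read 552, 543 and 492 in control and 1512, 1426 and 1399 in knockout, a 2.73-fold higher level (log2 1.45, SE 0.08, adjusted p = 1.47e-12). All other genes in the window up to 2 Mb away on either side had log2 fold changes between -0.97 and 0.72. On the other side the nearest tested gene was UBE2E3, which encodes a ubiquitin-conjugating enzyme, at 432 ± 48.0 and 599 ± 57.4 (log2 0.47), a call that ended with the median of its own neighbours taken out (0.15, adjusted p = 0.595). As strand use in the counting is not given, reads running past the end of either gene could be counted to the other, which was not tested.

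**Figure D4:**
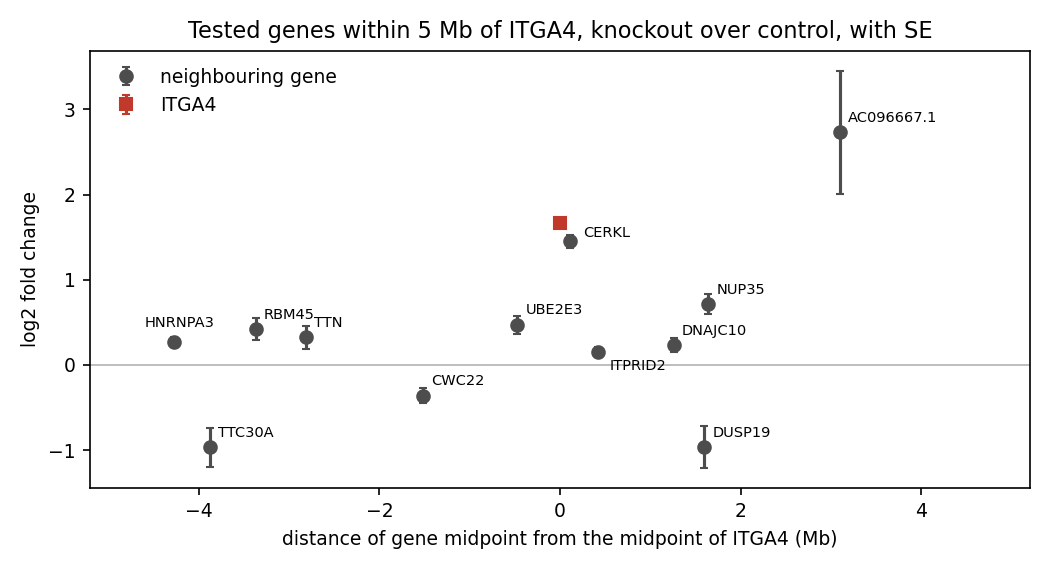
Log2 fold change with its standard error of the 12 tested genes within 5 Mb of ITGA4, by the distance of their midpoints from that of ITGA4 in Mb (square, ITGA4). CERKL, at 0.112 Mb, is at 1.45 and ITGA4 at 1.66; AC096667.1, at 2.73, has a knockout mean of 18.2 and a wide error.

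Of 6087 protein-coding genes averaging at least 100, the 5 most like ITGA4 over the 6 libraries, by the root mean square difference of centred log2 values, were IGFBP4, SLC1A3, SCRIB, PSEN2 and CD320, at differences of 0.04, 0.08, 0.08, 0.09 and 0.09. IGFBP4, which encodes a binding protein of insulin-like growth factors, went from 564 ± 27.1 to 1786 ± 42.2. With 2 groups of libraries such likeness is mostly a rise of the same size.

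Around the chains, 6 lists of genes were described by their counts, beside the 47.3% of tested genes called higher and 46.7% called lower and the median of 0.14 over all tested genes. Of 42 written adaptors and activators that act at the tails of integrins inside the cell, 25 were tested, 15 higher and 9 lower; the list median was 0.27 (log2). TNS1, a tensin that ties beta chains to actin, rose from 128 ± 27.7 to 499 ± 35.9, and MYO10, a myosin that carries integrins into filopodia, from 407 ± 24.1 to 1189 ± 135. KANK1, which binds talin, rose 2.06-fold, and LPXN, a paxillin relative of leucocytes, 1.61-fold. TLN1 and FERMT3, the talin and the kindlin of blood cells that switch integrins on, rose from 8998 to 12038 and from 4582 to 5777 (named with their values already known). The 9 lower genes were ZYX, ACTN1, RASGRP2, PPFIBP1, NUMB, PPFIA1, TNS2, LIMS2 and FERMT2. RASGRP2 fell from 1237 to 957 and the tensin TNS2 from 52.4 to 21.6. FERMT2, at 19.5 and 7.15, reached the minimum mean of 10 only through control, so its direction supports nothing. With the neighbours' median taken out, 4 genes of this list were higher in place of 15, and LPXN lost its call (log2 0.45, adjusted p = 0.0898). MYO10, TNS1 and KANK1 kept their calls in that setting, so TLN1 and FERMT3 cannot both have kept theirs. Over all 7516 tested genes 2241 were then higher in place of 3557. The 9 lower genes became 5 without control 1 and also without control 2.

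Of 40 written kinases and signalling proteins below integrins, 27 were tested, 10 higher and 16 lower, with a median of -0.29. FYN, a Src family kinase, fell from 1503 ± 122 to 435 ± 6.52, a 3.45-fold lower level (log2 -1.78, adjusted p = 7.44e-14). NEDD9, the docking protein known from lymphocytes, fell 2.18-fold, and CBL, a ubiquitin ligase that curbs these signals, 1.51-fold. SYK, the kinase that leucocyte integrins engage, rose from 776 ± 19.0 to 1572 ± 75.0.

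Of 77 written ligands, 22 were tested, 14 higher and 5 lower, with a median of 0.46. EMILIN2, an extracellular glycoprotein of the family whose member EMILIN1 binds α4β1, rose from 1462 ± 57.8 to 5947 ± 291 (log2 2.02, adjusted p = 4.79e-17). ADAM15, a disintegrin metalloprotease, rose 1.94-fold, LRRC32, which presents latent TGF-beta, 3.16-fold, and LAMA5, a laminin chain, 2.88-fold. Of the ligands that α4β1 is best known for, FN1, fibronectin, rose from 9.95 ± 1.70 to 43.8 ± 17.2 and VCAM1 was not analysed here. ICAM1, a ligand of the ITGB2 receptors, rose from 691 ± 45.3 to 1231 ± 20.5. The 5 lower ligands were LAMA3, TGFB1, TGFB3, FBN1 and TGFBI, of which TGFBI went from 18.8 to 1.65. TGFBI and FN1 passed the minimum mean of 10 only through the group where they were high, so they had to differ. These ligands and FN1 were named with their values already known.

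Of 25 written tetraspanins and other membrane partners, 14 were tested, 8 higher and 4 lower, with a median of 0.46. CD81, a tetraspanin that sits beside α4β1, rose from 2507 ± 260 to 5094 ± 180, CD53, a tetraspanin of leucocytes, from 420 ± 25.4 to 909 ± 55.2, and LGALS8, a galectin that binds integrin sugars, 3.43-fold. NRP1, a co-receptor of growth factors and semaphorins, fell from 2448 ± 21.6 to 739 ± 28.2; the other lower members were SLC3A2, PLAUR and TSPAN33. Of 31 genes written for traffic and maturation, 20 were tested, 8 higher and 9 lower, with a median of -0.01. HSP90B1, a chaperone that many but not all integrin chains need in order to fold, rose from 10120 ± 268 to 17602 ± 602, and CALR, calreticulin, 1.54-fold. VAMP3 rose 1.54-fold. RAB11A, a recycling GTPase, rose 1.60-fold and lost its call with the neighbours' median taken out (log2 0.17, adjusted p = 0.102). In that setting 5 genes of the traffic list were higher in place of 8, beside 2241 in place of 3557 over all 7516 tested genes. The 9 lower genes of the traffic list were CLTC, MGAT5, GGA3, ARF6, STX6, RAB5B, ST6GAL1, RAB5A and RAB21. Their falls ran from 1.18-fold (RAB21) to 1.46-fold (STX6).

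Of 33 other adhesion and homing receptors of leucocytes, 17 were tested, 9 higher and 6 lower, with a median of 0.46; 3 were lower without control 3. ESAM, an endothelial and stem cell adhesion molecule, rose from 101 ± 34.9 to 710.3 ± 62.1, and CD58, the ligand of CD2, 1.80-fold. ADGRE5, the adhesion receptor CD97, fell from 6252 ± 316 to 2411 ± 91.0.

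**Figure D5:**
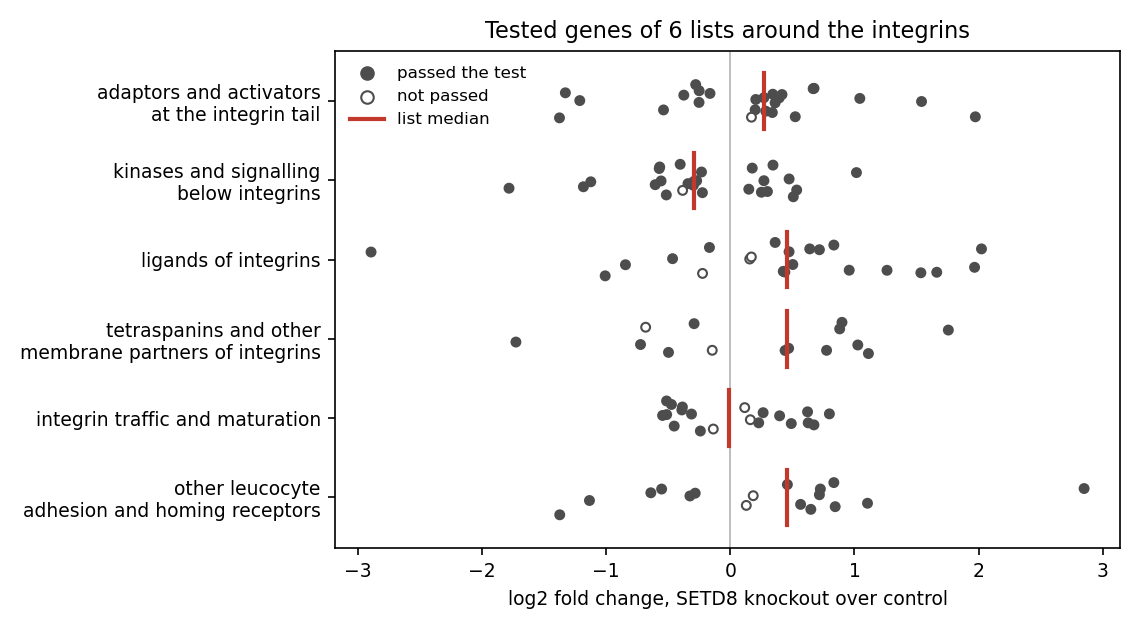
Log2 fold change, SETD8 knockout over control, of the tested genes in 6 lists around the integrins, with 1 point per gene (filled where it passed the test) and a red line at the list median. The kinase and signalling list has its median at -0.29 and the ligand list at 0.46, beside 0.14 over all tested genes.

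Markers of other blood cells moved with the groups in both directions. Of 13 written neutrophil markers 5 were tested and called higher (47.3% of all tested genes were), and their summed level ran from 1760 to 1845 in control and from 4933 to 5094 in knockout, with PRTN3, a granule protease, going from 58.2 to 1754; the others were AZU1, CSF3R, CXCR2 and ELANE. MPO, another granule protein, fell 7.95-fold, as given above. Of 14 monocyte markers 4 were tested, with CSF1R, FCGR1A and LYZ higher and VCAN lower and sums of 1128 to 1296 and 1352 to 1598, and the 2 tested of 14 T and NK cell markers, CD3D and CD4, were higher, with sums of 2715 to 2952 and 5195 to 5313. TRAC, of the same T cell list, was below the minimum for testing, at 17.3 and 1.37. ELANE, LYZ and VCAN reached that minimum only through the group where they were high, so their direction supports nothing. The call of CSF1R ended without control 1 (adjusted p = 0.0881) and that of CXCR2 without control 3 (adjusted p = 0.0659). With the neighbours' median taken out, the calls of CSF1R, CXCR2 and FCGR1A ended (adjusted p = 0.168, 0.530 and 1.0). SIGLEC6 was the tested marker of mast cells, at 391 ± 22.2 and 10.1 ± 4.24, and the erythroid markers EPOR and TFRC rose 1.57-fold and fell 1.28-fold; TFRC was at 0.09 (adjusted p = 0.512) with its neighbours' median taken out. In bulk libraries fewer cells of a type and less RNA per cell cannot be told apart. The part of such markers in the changes of ITGB2, ITGAM and the other chains was not tested.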

How the data were processed

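RNA sequencing of 3 control and 3 SETD8 knockout libraries was used as 1 deposited table. HISAT2, DESeq2 and build hg38 are named in the submitters' processing notes; no source here gives versions or the gene counter. The deposited values are a signal per library, made by the authors as reads over a size factor, so that 1 read is worth 0.934 to 1.04. Division by that step gave whole reads, within 0.001, for 100% of values; in control 3 and SETD8 knockout 2 the step lies so near 1 that whole reads are less certain. The authors also deposited for each gene a log2 fold change with its p-value, raw and adjusted; the table holds their selection, as described in the report. Coordinates equal those of GENCODE release 29 for all 7983 rows.

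Genes with a mean of at least 10 (7516, leaving out 467) were fitted on the scale log2(value + 1) by limma-trend (R 4.3.3 with limma 3.58.1) and tested two-sided, with Benjamini-Hochberg adjustment over 19860 genes, the number behind the deposited adjustment. Its pooled spread comes from genes already selected for change. On simulated counts for these 7516 genes 3 calls were false, and the fit found 52% of the genes set to a change of 1.25-fold. It found 72% of those set to 1.5-fold, 96% of those set to 2-fold and 98% of those set to 4-fold. The simulation changed only a small part of the genes and adjusted over 7516. The fit of the libraries called 94.1% and adjusted over 19860, so the simulated rates do not carry over to it. Count tests on recovered reads (edgeR 4.0.16 quasi-likelihood and DESeq2 1.42.0) called 7166 and 6890 genes, beside 7070 here. Ratios of partners used exact permutation (scipy 1.17.1). Members, lists and tests were chosen with earlier results of these data known. Named genes are all chains, per list the 4 called genes (or fewer) of largest change averaging 50 or more, the 5 genes most like ITGA4, its nearest tested genes and KMT5A. Other genes of the lists were named with their values already known. The results of 2 cell type marker lists are not reported here, and those of 1 only in part. Within each group, libraries differed beyond counting noise (chi-square per degree of freedom 3.83 to 11.9).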

Additional observations from a re-analysis of the deposited data

How the results depend on the processing

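Under 18 other settings (TMM or upper-quartile scaling, edgeR, DESeq2, other filters and pseudocounts, a replicate block, each library left out, another adjustment, and removal of the length trend or of the neighbours' median) ITGA4 kept its direction and call, with log2 fold changes from 1.36 to 1.79, as did ITGA5, ITGA6, ITGA9, ITGB1 and ITGB2. Taking out the median of neighbouring genes left 2241 genes higher in place of 3557 over the table and 3 chains lower in place of 5, turned ITGAV to -0.40 and turned TFRC to 0.088 (adjusted p = 0.512); the cause was not tested. Leaving out 1 library kept 4 or 5 chains higher and 5 lower. Same-numbered libraries did not deviate together (correlations of -0.05 to 0.01), so the values show no pairing by number. Whether same-numbered libraries were handled together cannot be told from this. With the replicate block 3569 genes were higher and 3522 lower, and ITGAV passed (adjusted p = 0.0458), as the only chain whose call changed. ITGAV also passed with a pseudocount of 5 (0.0494), with adjustment over tested genes only (0.0209) and with the length trend removed (log2 0.32, 0.00106). Requiring a mean of at least 50 removed ITGAM, left 5 adaptors and 3 ligands lower, and the length trend removed left 4 adaptors lower. Differences of partner ratios moved by less than 1 SD, but as single libraries were left out ITGA2B over ITGB3 ran from 0.11 to 2.18 and ITGAV over ITGB3 from 1.21 to 3.18, lowest without control 3 and highest without control 1. Few reads limit ITGB3, ITGAM and ITGB2-AS1.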
